A study of Mus musculus with 10 samples.

Results

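A set of 9 genes of mast cells, basophils and eosinophils was followed through early lymphoid progenitors of mouse bone marrow: Cpa3, Prg2, Mcpt8, Ms4a2, Fcer1a, Hdc, Epx, Gzmb and Prss34. They were chosen by symbol, as genes whose products fill the granules, make histamine or form the IgE receptor of these cells. The choice was made with earlier results of these data known, so shares of members beside those of all genes are descriptions only. All 9 were found among the 23152 genes measured. The 4 sorted groups from adult C57BL/6 mice were compared on Affymetrix arrays. Ly6D+ common lymphoid progenitors (CLPs) and Ly6D- CLPs, with 2 arrays each, were negative for lineage markers, carried little cKit and Sca-1 and much Flt3, and had CD127, the interleukin-7 receptor chain, on their surface. CD127+ lymphoid-primed multipotent progenitors (LMPPs) and CD127- LMPPs, with 3 arrays each, also lacked lineage markers and carried much cKit, Sca-1 and Flt3. The labels give no transgene or treatment for any group, and the design text divides LMPPs by CD127 and sets them beside CLPs. The labels do not say whether replicates came from separate animals or sorts, so p-values measure the spread between these samples, which may be technical. The LMPP samples and the CLP samples are numbered in separate blocks. Any difference in handling between these blocks cannot be told apart from a difference between CLPs and LMPPs.

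Mast cells, basophils and eosinophils are myeloid cells with granules, and their routes of origin share several intermediates. GATA and C/EBP factors take part in the choice between these fates. Mast cells and basophils carry the high-affinity IgE receptor, and crosslinking of bound IgE releases granules with histamine, proteases and lipid mediators. Eosinophil granules hold major basic protein and eosinophil peroxidase. LMPPs keep lymphoid and some myeloid potential, CLPs are largely lymphoid, and Ly6D marks CLPs that are moving toward B cells.

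The deposited signals were taken to be on a log2 scale, judging by their range, since no source used here states it. Each gene value was the mean over the probe sets of that gene, and levels are compared within a gene only, since probe sets differ in brightness. A low signal limit of 4.44 was set at the 95th percentile of 1437 sensory receptor genes, a class of genes that blood progenitors are not known to use. Il7r and Ly6d followed the labels. Il7r, which encodes CD127, spanned 9.62 to 9.66 in Ly6D+ CLPs, 9.28 to 9.34 in Ly6D- CLPs and 9.05 to 9.15 in CD127+ LMPPs, against 3.84 to 4.70 in CD127- LMPPs. Ly6d spanned 11.3 to 11.4 in Ly6D+ CLPs, against 5.59 to 6.17 in Ly6D- CLPs. Ly6d was also at 8.53 to 8.81 in CD127+ LMPPs, against 4.61 to 4.91 in CD127- LMPPs. Ly6a, which encodes Sca-1 and is read by 2 probe sets, did not follow them throughout. It averaged 6.30 ± 0.66 in Ly6D+ CLPs and 5.51 ± 0.66 in Ly6D- CLPs (SD, n = 2 each), 7.02 ± 0.59 in CD127+ LMPPs and 5.82 ± 0.18 in CD127- LMPPs (SD, n = 3 each), and passed in none of the 6 comparisons by limma, where 2 had an unadjusted p under 0.05. Most genes of the mast cell and eosinophil lists lay under the limit. The median of all genes was 4.56, little above it, and the share of all genes under it on every array is not given here. The limit is set across genes, so it is only a rough guide for a single gene. Of 13 mast cell granule and surface genes, 10 were under the limit on every array, among them the chymases Cma1 and Mcpt4 and the tryptase Tpsb2. Of 9 measured eosinophil genes, 7 were under it on every array, among them Prg3, a second major basic protein, and Il5ra, a chain of the interleukin-5 receptor. Ear1, Ear2, Ear3, Ear7 and Ear12, also on the eosinophil list, were not among the measured genes.

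The 9 genes did not move as a block. Mcpt8 was highest in CD127- LMPPs, Prg2 was highest in CD127+ LMPPs, Cpa3 was highest in Ly6D- CLPs and Gzmb was highest in Ly6D+ CLPs. Across all 4 groups the moderated F test of limma passed for these 4 members and not for the other 5, a share to set beside the 9.38% of all genes that passed. The adjusted p was 0.000164 for Mcpt8, 0.000717 for Cpa3, 0.0180 for Gzmb and 0.0276 for Prg2. For the other 5 it lay between 0.194 for Epx and 0.865 for Prss34. In such sorted bulk samples, fewer cells that hold a transcript and less of it per cell cannot be told apart.

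**Figure D1:**
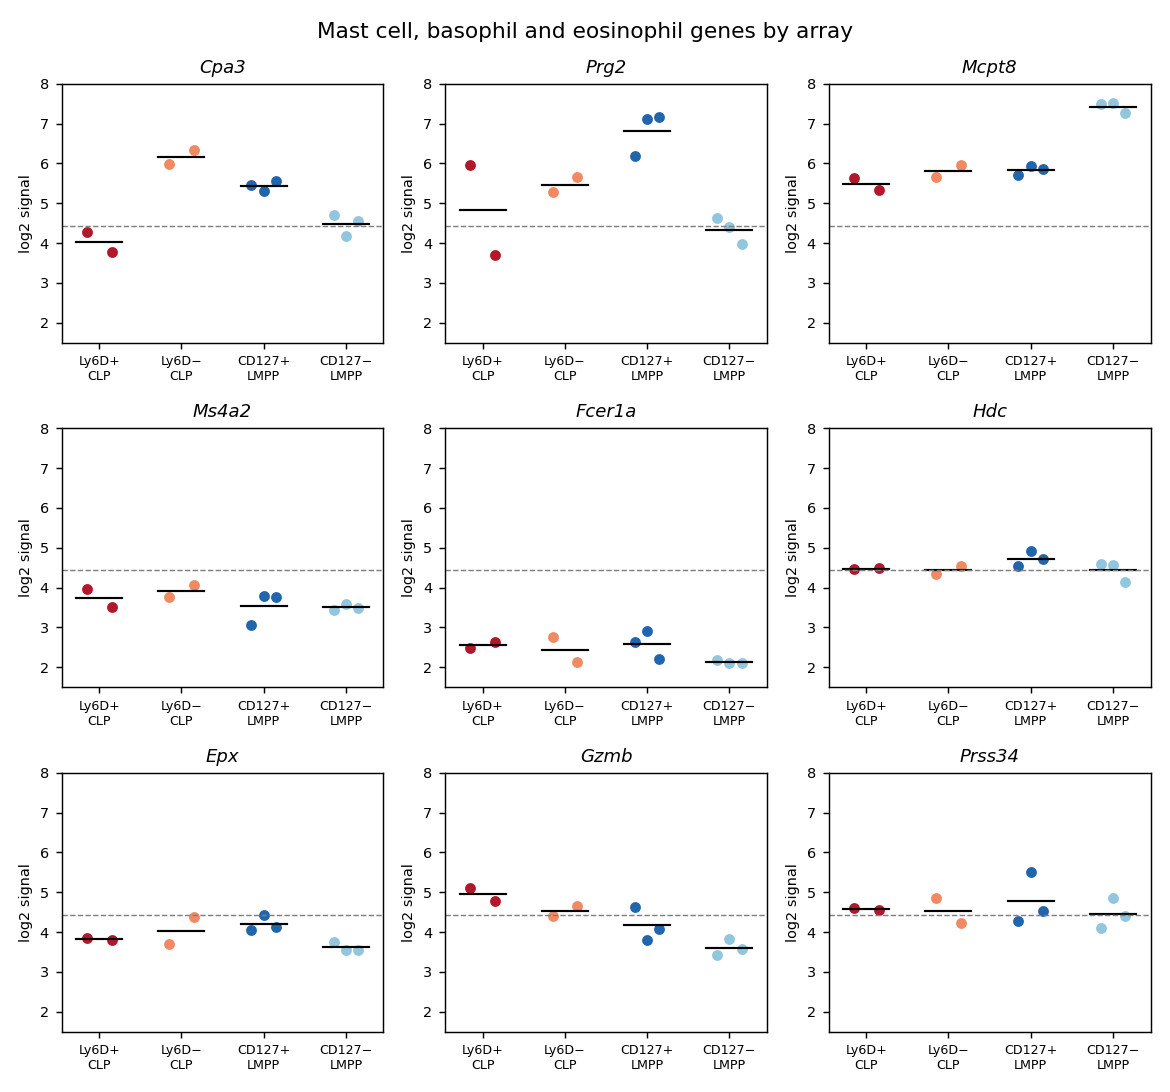
Log2 signal of the 9 genes on each array (vertical axis), with 2 arrays for each CLP group and 3 for each LMPP group. Points are arrays, solid lines are group means and the dashed line is the low signal limit of 4.44. Cpa3, Prg2, Mcpt8 and Gzmb each peak in a different group, and Ms4a2, Fcer1a and Epx stay under the limit on all 10 arrays.

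The region around the start of each gene is shown for Mcpt8, Cpa3 and Gzmb, the genes that changed in a group comparison and have a window in the RefSeq table used here, so that their different patterns can be read beside their sequences. The windows run 5′ to 3′ along the gene, from 250 bases before the annotated start to 50 after it, in build GRCm38.p6. Capitals mark GATAA, a core that GATA factors bind, and TGTGGT, a core that RUNX factors bind, on either strand.
Mcpt8 (chr14:56085148-56085447, minus strand): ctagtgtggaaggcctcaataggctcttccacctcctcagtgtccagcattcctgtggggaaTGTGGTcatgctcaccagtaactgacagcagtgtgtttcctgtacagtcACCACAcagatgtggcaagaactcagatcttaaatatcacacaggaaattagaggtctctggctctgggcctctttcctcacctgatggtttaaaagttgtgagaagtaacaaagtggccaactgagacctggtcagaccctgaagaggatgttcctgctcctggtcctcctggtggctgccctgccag
Cpa3 (chr3:20242132-20242431, minus strand): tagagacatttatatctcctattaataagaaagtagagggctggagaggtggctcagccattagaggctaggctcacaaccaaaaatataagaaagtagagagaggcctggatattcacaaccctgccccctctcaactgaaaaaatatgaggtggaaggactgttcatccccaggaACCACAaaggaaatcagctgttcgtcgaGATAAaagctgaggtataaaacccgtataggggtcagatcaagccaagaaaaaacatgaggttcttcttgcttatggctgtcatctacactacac
Gzmb (chr14:56262285-56262584, minus strand): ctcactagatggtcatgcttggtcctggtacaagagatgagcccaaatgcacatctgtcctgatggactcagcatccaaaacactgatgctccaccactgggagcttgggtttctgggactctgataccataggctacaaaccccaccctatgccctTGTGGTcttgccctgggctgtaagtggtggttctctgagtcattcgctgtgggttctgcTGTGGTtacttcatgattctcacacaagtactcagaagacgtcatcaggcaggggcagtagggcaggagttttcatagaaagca
All 3 windows held TGTGGT upstream of the start, with 2 matches in Mcpt8, 2 in Gzmb and 1 in Cpa3, and only the Cpa3 window of the 3 held GATAA. Of the 8 members with a window, 4 held TGTGGT and 4 held GATAA, whereas 16.8% and 25.4% of all 32851 windows did. The members with GATAA were Cpa3, Ms4a2, Fcer1a and Prss34. The C/EBP core TTGCNNAA was in 1 of 8 member windows and in 10.8% of all windows, the E-box CANNTG in 7 of 8 and in 72.3%, and the PU.1 core GAGGAAGT in 0 of 8 and in 3.2%. Both strands were searched, and no marked match overlapped another. These are letter matches in a 300 base window and say nothing of binding.

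Between the CD127+ and CD127- LMPPs, 3 of 9 members passed at an adjusted p under 0.05, 2 higher and 1 lower in CD127+ LMPPs, against 1.47% of all genes (0.881% higher and 0.592% lower). There were 5 members with groups that did not overlap, against 17.7% of all genes. Ly6D+ over Ly6D- CLPs gave 1 member, lower, against 0.0993% of all genes (0.0605% lower), and 3 members without overlap against 37.6%. No member passed between Ly6D- CLPs and CD127+ LMPPs by limma, against 2.06% of all genes, although 2 had an unadjusted p under 0.05 and 3 did not overlap, against 34.3%. Ly6D+ CLPs over CD127+ LMPPs gave 1 member, lower, against 4.03% of all genes (2.75% lower), with 6 members without overlap against 37.9%. Against CD127- LMPPs, Ly6D- CLPs gave 2 higher members and 1 lower, beside 7.1% of all genes (2.93% higher and 4.17% lower), and 5 without overlap against 36.6%. Ly6D+ CLPs against CD127- LMPPs gave 1 higher member and 1 lower, beside 10.9% of all genes (3.93% higher and 6.94% lower), and 4 without overlap against 42.5%. The median difference over the 9 members was 0.46 for CD127+ over CD127- LMPPs, which is the difference of Fcer1a, a gene under the limit on every array. It was -0.17 for Ly6D+ over Ly6D- CLPs, -0.14 for Ly6D- CLPs and -0.25 for Ly6D+ CLPs over CD127+ LMPPs, and 0.41 for Ly6D- CLPs and 0.21 for Ly6D+ CLPs over CD127- LMPPs. The medians of all genes lay between -0.01 and 0.02. The counts of all genes behind these shares depend on single arrays. With 1 array left out they spanned 165 to 340 beside 341 between the LMPP groups and 6 to 27 beside 23 between the CLP groups. They spanned 76 to 438 beside 476 for Ly6D- CLPs and 194 to 1016 beside 933 for Ly6D+ CLPs over CD127+ LMPPs. Over CD127- LMPPs they spanned 808 to 1448 beside 1643 for Ly6D- CLPs and 1001 to 2652 beside 2517 for Ly6D+ CLPs. In all 3 comparisons of Ly6D+ CLPs the lowest count came without the second Ly6D+ CLP array, and without the first it was 8 over Ly6D- CLPs, 221 over CD127+ LMPPs and 1015 over CD127- LMPPs. These 6 comparisons share groups and are not independent of each other.

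**Figure D2:**
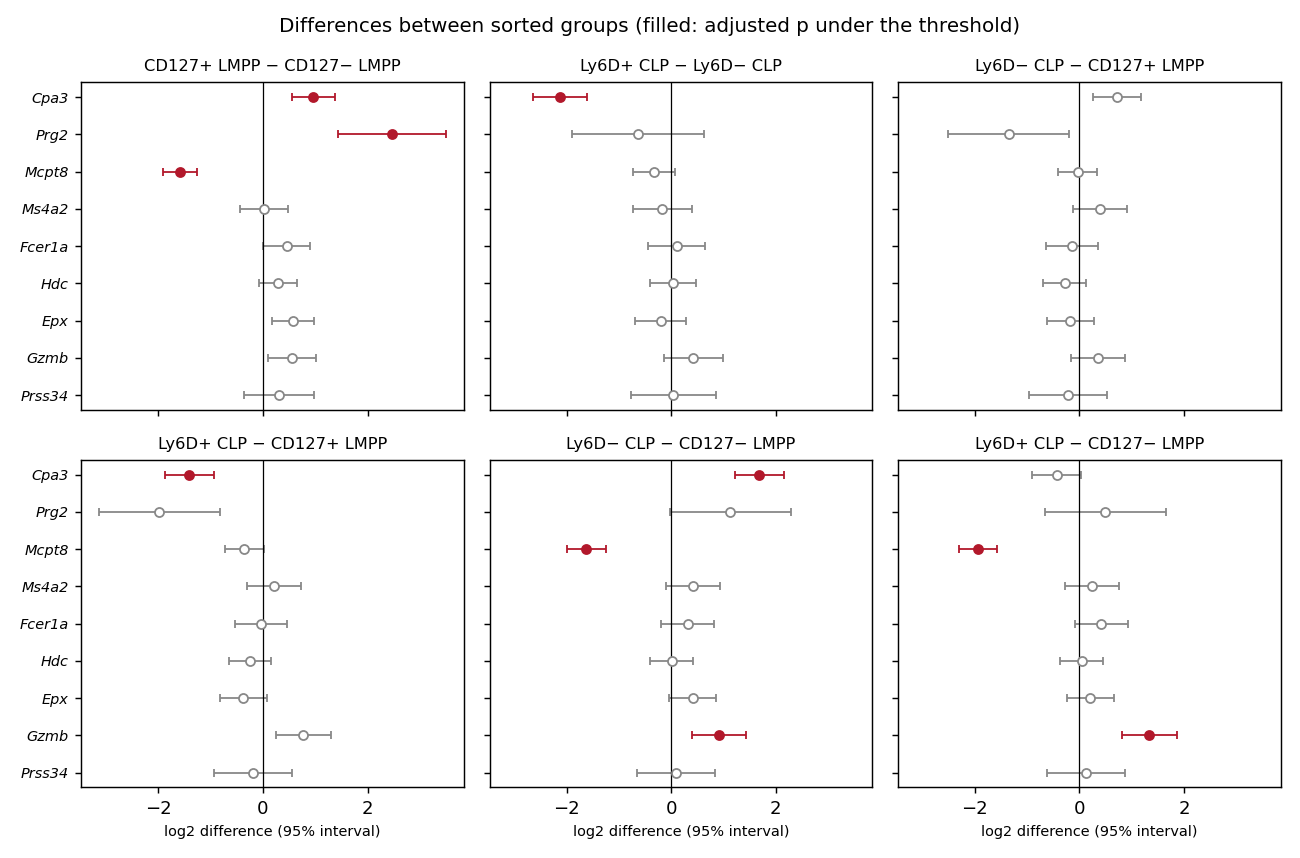
Log2 difference between sorted groups for each of the 9 genes (horizontal axis), first group of each panel title minus second, with 95% intervals from limma. Filled red points passed at an adjusted p under 0.05. Cpa3 passed in 4 panels, Mcpt8 in 3, Gzmb in 2 and Prg2 in 1, and the other 5 genes in none.

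Mcpt8 encodes a serine protease that in mice is a marker of basophils. It was lower in all 3 other groups than in CD127- LMPPs. It read 5.63 and 5.34 in Ly6D+ CLPs, 5.65 and 5.96 in Ly6D- CLPs, 5.71, 5.94 and 5.86 in CD127+ LMPPs, and 7.48, 7.52 and 7.27 in CD127- LMPPs. All 3 CD127- LMPP arrays stood above the other 7, and the Ly6D- CLP and CD127+ LMPP arrays overlapped. In CD127+ LMPPs Mcpt8 was 3.00-fold lower than in CD127- LMPPs, a log2 difference of -1.59 with an SE of 0.15 and an adjusted p of 0.000396. Ly6D- CLPs were 3.08-fold lower than CD127- LMPPs (log2 difference -1.62, SE 0.17, adjusted p = 0.000514). Ly6D+ CLPs were 3.84-fold lower than CD127- LMPPs (log2 difference -1.94, SE 0.17, adjusted p = 6.76e-05). All 6 probe sets of Mcpt8 were lower in each of these comparisons, by 0.97 to 1.94 on the log2 scale in CD127+ LMPPs. The other 3 groups did not differ by the test, and the difference between Ly6D- CLPs and CD127+ LMPPs was -0.03, with a 95% interval from -0.40 to 0.33. With each array left out in turn, the adjusted p of the CD127+ LMPP comparison stayed between 0.000616 and 0.00418.

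Cpa3 encodes carboxypeptidase A3, a protease of mast cell granules that is also transcribed in some early progenitors. It read 4.29 and 3.78 in Ly6D+ CLPs, 5.97 and 6.35 in Ly6D- CLPs, 5.45, 5.32 and 5.55 in CD127+ LMPPs, and 4.70, 4.17 and 4.54 in CD127- LMPPs. Both Ly6D- CLP arrays stood above the CD127+ LMPP arrays, which stood above all CD127- LMPP arrays. Both Ly6D+ CLP arrays were under the low signal limit. Ly6D+ CLPs were at least 3.30-fold lower than Ly6D- CLPs, with a log2 difference of -2.12, an SE of 0.23 and an adjusted p of 0.00509. Such bounds set the dim group at the limit. Of all 23152 genes, 23 passed between these CLP groups, and 6 without the second Ly6D+ CLP array.

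The other Cpa3 comparisons followed the same order of levels. Against CD127+ LMPPs, Ly6D+ CLPs were at least 2.00-fold lower (log2 difference -1.40, SE 0.21, adjusted p = 0.00516). Against CD127- LMPPs, Ly6D- CLPs were 3.22-fold higher (log2 difference 1.69, SE 0.21, adjusted p = 0.00129). CD127+ LMPPs were 1.95-fold higher than CD127- LMPPs (log2 difference 0.97, SE 0.19, adjusted p = 0.0307), and 1 of the 3 CD127- LMPP arrays was under the limit. Neighbours at either end of the order did not pass the test. The difference between Ly6D- CLPs and CD127+ LMPPs was 0.72 (95% interval 0.26 to 1.18, adjusted p = 0.104), and that between Ly6D+ CLPs and CD127- LMPPs was -0.44 (95% interval -0.90 to 0.03, adjusted p = 0.227).

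The probe sets of Cpa3 did not all show these differences. Of the 12, 11 were lower in Ly6D+ than in Ly6D- CLPs, 11 of 12 were higher in Ly6D- CLPs than in CD127- LMPPs and 10 of 12 were higher in CD127+ than in CD127- LMPPs. The brightest probe set differed in sign from the gene value in some comparisons: its difference was 0.26 for Ly6D+ CLPs over CD127+ LMPPs and -0.07 for CD127+ over CD127- LMPPs. The call between the LMPP groups was also lost when any 1 of the 6 LMPP arrays was left out, with an adjusted p of up to 0.134. The call between the CLP groups was lost without the second Ly6D- or the second Ly6D+ CLP array (adjusted p up to 0.0677), and that of Ly6D+ CLPs over CD127+ LMPPs without the second Ly6D+ CLP array (adjusted p = 0.0717). The call of Ly6D- CLPs over CD127- LMPPs passed with each array left out (adjusted p up to 0.0152).

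Prg2 encodes major basic protein, the main protein of the eosinophil granule, which basophils and mast cells also hold. It read 5.96 and 3.71 in Ly6D+ CLPs, 5.28 and 5.65 in Ly6D- CLPs, 6.18, 7.10 and 7.16 in CD127+ LMPPs, and 4.62, 4.41 and 3.99 in CD127- LMPPs. The CD127+ LMPP arrays were the highest 3 of the 10, and the pair of Ly6D+ CLP arrays stood far apart. In CD127+ LMPPs Prg2 was 5.56-fold higher than in CD127- LMPPs, a log2 difference of 2.48 with an SE of 0.47 and an adjusted p of 0.0264. Of the 3 CD127- LMPP arrays, 2 were under the limit. All 7 probe sets were higher in CD127+ LMPPs, by 0.35 to 4.31 on the log2 scale.

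Prg2 had a mean of 4.83 ± 1.59 in Ly6D+ CLPs (SD, n = 2), 5.47 ± 0.27 in Ly6D- CLPs (SD, n = 2) and 6.81 ± 0.55 in CD127+ LMPPs (SD, n = 3). Neither CLP group passed against CD127+ LMPPs: the log2 difference was -1.98 for Ly6D+ CLPs (95% interval -3.14 to -0.82, adjusted p = 0.0621) and -1.35 for Ly6D- CLPs (95% interval -2.51 to -0.19, adjusted p = 0.206). The first of these rests on the Ly6D+ CLP arrays, which differ so much that the difference was -3.10 with an adjusted p of 0.00902 without the first of them. Without the second, Ly6D+ CLPs passed as higher than CD127- LMPPs, by 1.62 with an adjusted p of 0.0445. The call between the LMPP groups was lost without any 1 CD127- LMPP array or without the second CD127+ LMPP array or the third one, with an adjusted p of up to 0.130.

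Gzmb encodes granzyme B, a serine protease of cytotoxic lymphocytes that mouse basophils and mast cells can also make. It read 5.12 and 4.77 in Ly6D+ CLPs, 4.40 and 4.65 in Ly6D- CLPs, 4.62, 3.81 and 4.08 in CD127+ LMPPs, and 3.43, 3.82 and 3.57 in CD127- LMPPs. Both Ly6D+ CLP arrays were the highest 2 of the 10, and the CD127- LMPP arrays were all under the limit. Ly6D+ CLPs were at least 1.42-fold higher than CD127- LMPPs, with a measured log2 difference of 1.34, an SE of 0.24 and an adjusted p of 0.0048. Ly6D- CLPs were at least 1.06-fold higher than CD127- LMPPs (measured log2 difference 0.92, SE 0.24, adjusted p = 0.0409). Neighbouring groups in the order did not pass the test, with a difference of 0.42 for Ly6D+ over Ly6D- CLPs (95% interval -0.15 to 0.99). Of 7 probe sets, 6 were higher in Ly6D+ CLPs and 7 of 7 in Ly6D- CLPs than in CD127- LMPPs, and the brightest probe set differed by -0.03 between Ly6D+ CLPs and CD127- LMPPs. The call for Ly6D- CLPs was lost in 14 of 20 alternative settings, among them without any 1 of the CD127- LMPP or CLP arrays or the third CD127+ LMPP array (adjusted p up to 0.186). The call for Ly6D+ CLPs was lost without the first Ly6D+ CLP array (adjusted p = 0.0588).

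**Figure D3:**
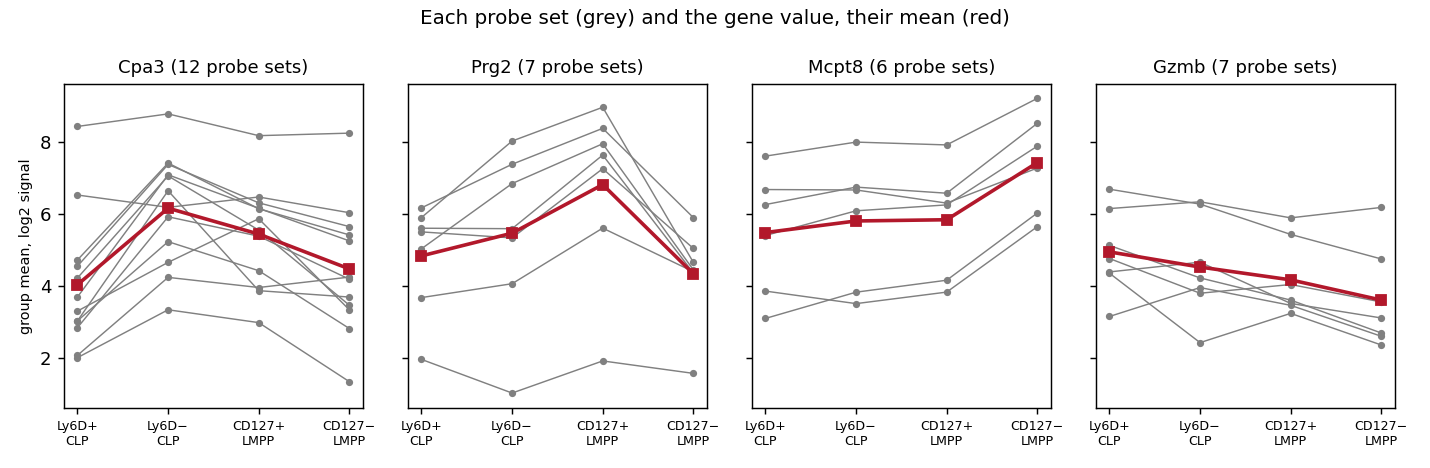
Group means of every probe set (grey) and of the gene value, their mean (red), for Cpa3, Prg2, Mcpt8 and Gzmb, in log2 signal. The 6 probe sets of Mcpt8 all peak in CD127- LMPPs, and all 7 of Prg2 are higher in CD127+ than in CD127- LMPPs, while the brightest of the 12 Cpa3 probe sets stays above 8 in every group.

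The other granule genes showed no change that passed. Epx encodes eosinophil peroxidase, and its gene value was under the limit on all 10 arrays. Of its 14 probe sets, 2 were above a limit set in the same way for single probe sets, the brightest at a mean of 6.45. The gene value read 4.06, 4.42 and 4.13 in CD127+ LMPPs, against 3.76, 3.56 and 3.55 in CD127- LMPPs, groups that did not overlap. Its difference of 0.58 did not pass by limma (95% interval 0.18 to 0.98, adjusted p = 0.208). In this comparison 12 probe sets were higher, by up to 3.30 on the log2 scale, and 2 were lower. Prss34 encodes a tryptase-like protease that mouse basophils make and ranged around the limit, with 4.61 and 4.56 in Ly6D+ CLPs, 4.85 and 4.23 in Ly6D- CLPs, 4.29, 5.50 and 4.52 in CD127+ LMPPs, and 4.10, 4.85 and 4.41 in CD127- LMPPs. Its second CD127+ LMPP array stood above all others, and its groups overlapped in every comparison. The 95% interval of its CD127+ over CD127- LMPP difference ran from -0.35 to 0.98.

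Hdc encodes histidine decarboxylase, which makes histamine. It read 4.45 and 4.50 in Ly6D+ CLPs, 4.34 and 4.54 in Ly6D- CLPs, 4.54, 4.93 and 4.71 in CD127+ LMPPs, and 4.60, 4.58 and 4.14 in CD127- LMPPs. These gene values lay close to the limit, while 7 of the 17 probe sets were above that for single probe sets, the brightest at a mean of 6.63. The CD127+ over CD127- LMPP difference of 0.29 did not pass by limma (95% interval -0.07 to 0.65, adjusted p = 0.563). In this comparison 12 probe sets were higher and 5 lower. Fcer1a and Ms4a2 encode the alpha and beta chains of the IgE receptor, and both stayed under the limit on every array. Fcer1a ranged from 2.10 to 2.92 over the 10 arrays and Ms4a2 from 3.05 to 4.06. No comparison of either chain passed by limma, and 1 Fcer1a comparison and 0 Ms4a2 comparisons had an unadjusted p under 0.05. Fcer1a read 2.65, 2.92 and 2.20 in CD127+ LMPPs, against 2.18, 2.12 and 2.10 in CD127- LMPPs, groups that did not overlap, with all 5 probe sets higher and a difference of 0.46 (95% interval 0.01 to 0.90, adjusted p = 0.435). Of the 11 probe sets of Ms4a2, 4 were above a limit set in the same way for single probe sets, the brightest at a mean of 5.49, and its CD127+ over CD127- LMPP difference was 0.03 (95% interval -0.43 to 0.49).

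Fcer1g encodes the signalling gamma chain that the IgE receptor shares with other Fc receptors, and it was well above the limit everywhere. It averaged 8.71 ± 0.09 in Ly6D+ CLPs, 8.60 ± 0.25 in Ly6D- CLPs (SD, n = 2 each), 8.87 ± 0.24 in CD127+ LMPPs and 9.80 ± 0.11 in CD127- LMPPs (SD, n = 3 each). By limma, all 3 other groups were lower than CD127- LMPPs. The log2 difference was -1.09 for Ly6D+ CLPs, -1.21 for Ly6D- CLPs and -0.93 for CD127+ LMPPs, with adjusted p of 0.00325, 0.00325 and 0.0147 in that order. Of 16 measured genes of IgE receptor signalling, 1 rose and 2 fell in CD127+ over CD127- LMPPs. The riser was Lat, an adaptor of T cell and mast cell signalling, by 1.43 on the log2 scale (adjusted p = 0.00339), and Gab2, another adaptor, fell by 0.77 (adjusted p = 0.0161). Lcp2, which encodes the adaptor SLP-76, fell in Ly6D+ over Ly6D- CLPs by 1.05 (adjusted p = 0.0461). With each array left out in turn, the call of Lat between the LMPP groups passed every time. Those of Fcer1g and Gab2 there were each lost in 4 of 10 cases and that of Lcp2 between the CLP groups in all 10. Over CD127- LMPPs, 4 of the 16 genes rose and 2 fell in Ly6D+ CLPs, and 2 rose and 1 fell in Ly6D- CLPs. Lat and Plcg1 rose in both, and with 1 array left out the Lat call in Ly6D- CLPs was lost in 4 of 10 cases. Over CD127+ LMPPs, 1 rose and 1 fell in Ly6D+ CLPs, and none passed in Ly6D- CLPs. The list's median differences lay between -0.20 and 0.06, against medians of all genes near 0.

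Mcpt8 and Gzmb lie on chromosome 14 in the protease gene cluster that also holds the mast cell chymases, with 7 protein-coding genes between them. Mcpt8 and its neighbour Ctsg were lower in CLPs than in CD127- LMPPs, and Gzmb and its neighbour Gzmc were higher. The protein-coding genes between these pairs were under the limit on every array, so no trend along the cluster was read. Ctsg, next to Mcpt8, encodes cathepsin G of neutrophil and mast cell granules. It averaged 5.96 ± 0.10 in Ly6D+ CLPs, 7.25 ± 0.12 in Ly6D- CLPs (SD, n = 2 each), 8.51 ± 0.03 in CD127+ LMPPs and 10.3 ± 0.25 in CD127- LMPPs (SD, n = 3 each). It was lower in all 6 comparisons by limma, with log2 differences between -1.26 for Ly6D- CLPs over CD127+ LMPPs (adjusted p = 0.00785) and -4.38 for Ly6D+ CLPs over CD127- LMPPs (adjusted p = 1.671e-07). The call between the CLP groups (-1.29, adjusted p = 0.0331) was lost in 8 of 10 cases with 1 array left out, and the other 5 in none.

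Gzmc, next to Gzmb, encodes granzyme C of cytotoxic lymphocytes. It averaged 5.28 ± 0.36 in Ly6D+ CLPs and 4.80 ± 0.01 in Ly6D- CLPs (SD, n = 2 each), and all 6 LMPP arrays were under the limit. Over CD127- LMPPs, Gzmc was at least 1.79-fold higher in Ly6D+ CLPs (measured log2 difference 2.22, adjusted p = 0.000304). In Ly6D- CLPs it was at least 1.28-fold higher (measured log2 difference 1.74, adjusted p = 0.00237). Gzmf, its other neighbour, had a call in Ly6D- CLPs with every array under the limit, so its direction was not read. Gzme, Gzmd, Gzmg and Gzmn were also under the limit on every array. Granzymes of this cluster are close in sequence, and how far probes of one read transcripts of another was not tested.

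**Figure D4:**
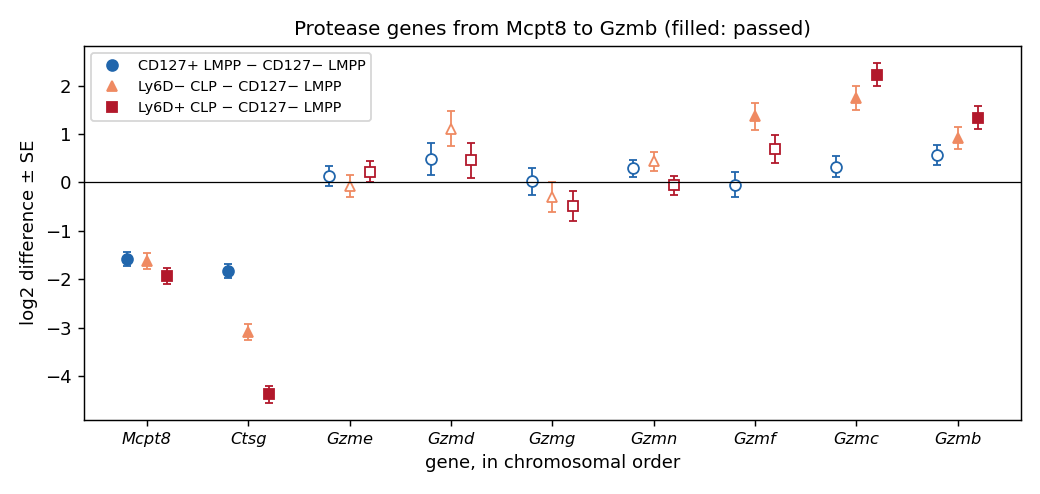
Log2 difference from CD127- LMPPs, with SE, for Mcpt8, Gzmb and the 7 protein-coding genes between them in chromosomal order. Filled symbols passed at an adjusted p under 0.05. Mcpt8 and Ctsg lie below 0 in all 3 groups, and Gzmc and Gzmb lie above 0 in both CLP groups.

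Other relatives of the members were tested in the same way. None of 9 tryptase relatives of Prss34 passed in any of the 6 comparisons by limma, and between 0 and 2 of them had an unadjusted p under 0.05. Of the 9 measured eosinophil genes, 0 passed in all 6, and 0 or 1 had an unadjusted p under 0.05. Of 13 mast cell granule and surface genes, a list that holds chymases of the cluster, none passed in 5 comparisons, where 0 to 3 had an unadjusted p under 0.05. In Ly6D+ CLPs over CD127- LMPPs, 2 rose and 1 fell, and the riser Mrgprb2 was under the limit on every array. Srgn, which encodes the granule proteoglycan serglycin of many blood cells, rose by 0.60 (adjusted p = 0.0287), and Ndst2, an enzyme of heparin synthesis, fell by 0.70 (adjusted p = 0.0226), and both calls were lost without the first or second CD127- LMPP array or either Ly6D+ CLP array. Mpo, the neutrophil relative of Epx, fell in CD127+ over CD127- LMPPs by 1.31 (adjusted p = 0.00144). Mpo averaged 8.27 ± 0.06 in Ly6D+ CLPs and 9.03 ± 0.24 in Ly6D- CLPs (SD, n = 2 each), 9.54 ± 0.16 in CD127+ LMPPs and 10.9 ± 0.17 in CD127- LMPPs (SD, n = 3 each), and it also fell in both CLP groups over CD127- LMPPs. The fall was by 2.59 in Ly6D+ CLPs, at an adjusted p of 1.19e-05, and by 1.83 in Ly6D- CLPs, at an adjusted p of 0.000297.

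Of 18 transcription factors of these lineages and their alternatives, 2 rose and 2 fell in CD127+ over CD127- LMPPs. Hes1, a Notch target, rose by 1.63 (adjusted p = 0.00116) and Bhlhe40 rose by 1.03 (adjusted p = 0.0211). Cebpa, a driver of granulocyte fates, fell by 1.13 (adjusted p = 0.0194), and Irf8, which favours monocytes and dendritic cells, fell by 1.03 (adjusted p = 0.0257). With each array left out in turn, Hes1 passed every time, Bhlhe40 was lost in 4 of 10 cases and Cebpa and Irf8 in 5 each. Over CD127- LMPPs, 3 of the 18 factors rose and 2 fell in Ly6D- CLPs, and 3 rose and 4 fell in Ly6D+ CLPs. Over CD127+ LMPPs, 1 rose and 2 fell in Ly6D- CLPs, and 1 rose and 1 fell in Ly6D+ CLPs. Bhlhe40 rose in every CLP comparison with LMPPs, and Hes1 rose in both CLP groups over CD127- LMPPs. Gata2, needed for mast cells and basophils, fell in every CLP comparison with LMPPs. It averaged 4.45 ± 0.26 in Ly6D+ CLPs, 4.26 ± 0.32 in Ly6D- CLPs (SD, n = 2 each), 5.36 ± 0.21 in CD127+ LMPPs and 5.80 ± 0.07 in CD127- LMPPs (SD, n = 3 each). Its difference between Ly6D- CLPs and CD127+ LMPPs was -1.10 by limma (adjusted p = 0.0233), and the Cpa3 difference in the same comparison was 0.72 and did not pass. The Gata2 calls against CD127- LMPPs passed with each array left out, and those against CD127+ LMPPs were each lost in 4 of 10 cases. Gata2 differed by -0.43 between CD127+ and CD127- LMPPs and did not pass (adjusted p = 0.363).

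Of 9 measured receptors for growth factors and alarmins of these cells, none passed between the LMPP groups by limma, where 2 had an unadjusted p under 0.05. The groups were sorted on the surface protein of Kit, the stem cell factor receptor. The Kit transcript fell in all 4 CLP over LMPP comparisons, the direction of that sort, so these falls are not independent of it. With 1 array left out, the Kit call of Ly6D- CLPs over CD127+ LMPPs was lost in 8 of 10 cases. Il3ra, a chain of the interleukin-3 receptor, also fell over CD127- LMPPs. The fall was by 1.21 in Ly6D+ CLPs, at an adjusted p of 0.00342, and by 1.15 in Ly6D- CLPs, at an adjusted p of 0.00716 that was lost without the first Ly6D- CLP array. Of 10 basophil and mast cell surface and cytokine genes, Cd63, a granule membrane protein, fell by 1.72 in Ly6D+ CLPs over CD127+ LMPPs (adjusted p = 0.00305). Of 10 genes of histamine, serotonin and eicosanoid handling, 3 fell in that comparison and none rose. Ltc4s, the leukotriene C4 synthase, fell by 0.94 (adjusted p = 0.0089), Alox5ap, the 5-lipoxygenase activating protein, by 0.80 (adjusted p = 0.0136) and Pla2g4a, a phospholipase, by 0.74 (adjusted p = 0.0181). All 3 calls were lost without the first Ly6D+ CLP array.

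Markers of other blood cells also changed between the LMPP groups. In CD127+ over CD127- LMPPs, where Prg2 and Cpa3 rose, 7 of 11 mature neutrophil genes rose and 0 fell, and 3 of 7 erythroid genes rose and 0 fell. The mean level of the neutrophil genes was 6.50 to 7.24 in CD127+ LMPPs, against 4.44 to 5.49 in CD127- LMPPs, and 9 to 11 of the 11 were above the limit in CD127+ LMPPs. The erythroid genes averaged 5.68 to 6.31 in CD127+ LMPPs, against 4.86 to 5.03 in CD127- LMPPs. In the same comparison, where Mcpt8 fell, 6 of 6 monocyte genes fell, and so did 3 of 5 neutrophil primary granule genes, a list that holds Mpo and Ctsg. The monocyte genes averaged 6.51 to 6.81 in CD127+ LMPPs, against 8.15 to 8.63 in CD127- LMPPs. For both CLP groups over CD127- LMPPs, 5 of 6 monocyte genes also fell. The part of these other cells or programmes in the results for Prg2, Cpa3 and Mcpt8 was not tested.

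On the 3 CD127+ LMPP arrays Prg2 was at 6.18, 7.10 and 7.16, and the neutrophil means of the same arrays were 6.63, 7.24 and 6.50. The levels of 8 natural killer and cytotoxic genes were set beside those of Gzmb. Of these, Gzma, Ncr1, Klrb1c and Eomes were under the limit on every array, as were 4 of 5 mature T cell genes, whereas Prf1, Nkg7, Klrk1 and Tbx21 were above it on some or all arrays. Prf1, which encodes perforin, rose in Ly6D+ CLPs over CD127- LMPPs, where Gzmb also rose. It averaged 5.68 ± 0.14 in Ly6D+ CLPs (SD, n = 2) and 5.02 ± 0.26 in CD127- LMPPs (SD, n = 3), a log2 difference of 0.66 with an adjusted p of 0.0418 that was lost in 5 of 10 cases with 1 array left out. In Ly6D- CLPs over CD127- LMPPs, where Gzmb also rose, Prf1 differed by 0.20 and did not pass (adjusted p = 0.576), and Nkg7, a granule protein of cytotoxic cells, fell by 0.56 (adjusted p = 0.0415), a call lost in 8 of 10 cases.

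Of 5 plasmacytoid dendritic cell genes, 2 rose and 0 fell in CD127+ over CD127- LMPPs. Siglech, a surface lectin of these cells, rose by 0.90 (adjusted p = 0.0193) and Irf7, an interferon regulatory factor, by 0.74 (adjusted p = 0.0347), and with 1 array left out these calls were lost in 4 and 8 of 10 cases. The mean of the list was 7.25 on both Ly6D+ CLP arrays, 6.90 and 7.22 in Ly6D- CLPs, 6.95 to 6.98 in CD127+ LMPPs and 6.36 to 6.50 in CD127- LMPPs. Gzmb too was highest in Ly6D+ CLPs and lowest in CD127- LMPPs. In both comparisons where Gzmb rose, Siglech rose and Bst2, another gene of the list, fell. With 1 array left out, the Bst2 call was lost in 9 of 10 cases for Ly6D+ CLPs and in 1 of 10 for Ly6D- CLPs. The Siglech calls of these comparisons were lost in none. The rise of Siglech over CD127- LMPPs was by 3.33 in Ly6D+ CLPs, at an adjusted p of 2.58e-06, and by 2.12 in Ly6D- CLPs, at an adjusted p of 0.000195. The part of cells or programmes with these cytotoxic or dendritic cell genes in the result for Gzmb was not tested.

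**Figure D5:**
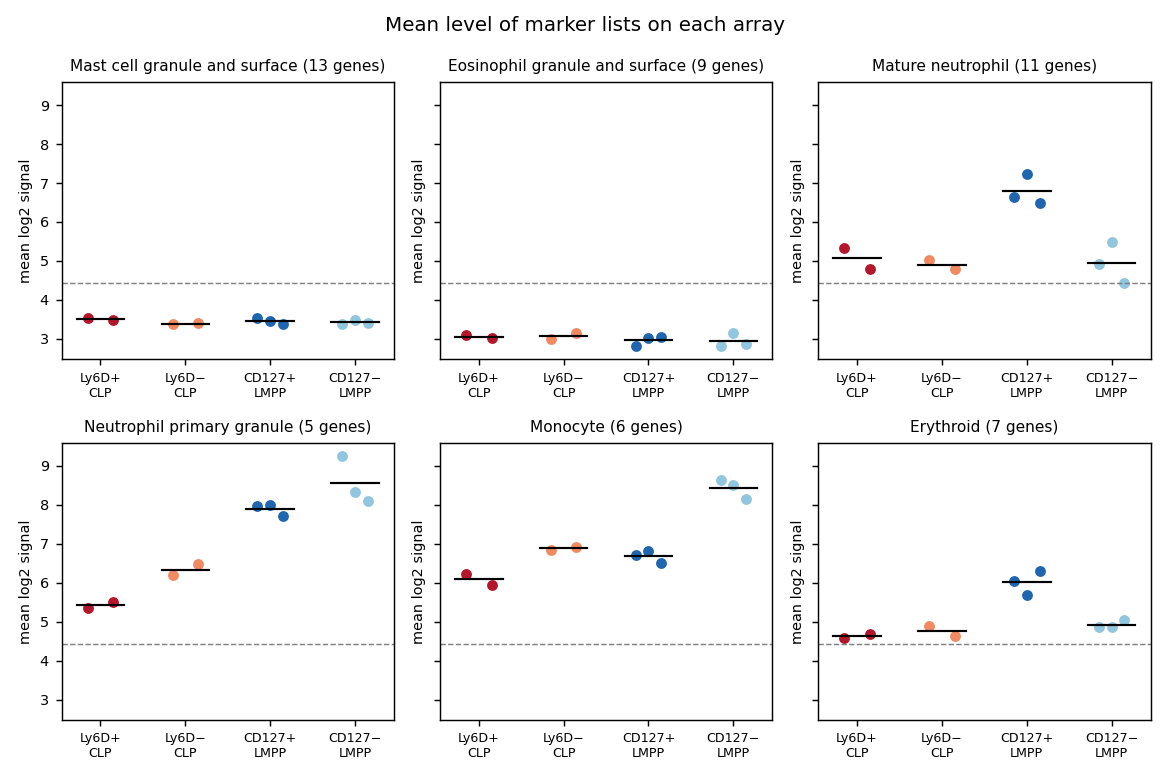
Mean log2 signal over each marker list on each array, with group means as solid lines and the low signal limit of 4.44 dashed. Mast cell and eosinophil genes stay under the limit as a mean in every group, mature neutrophil and erythroid genes are highest in CD127+ LMPPs, and monocyte and neutrophil primary granule genes are highest in CD127- LMPPs.

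The genes whose pattern over the 10 arrays was closest to each changing member were found by the root mean square difference of values centred on each gene's own mean, among 1869 other genes that passed the F test, after predicted genes, small RNA genes and immunoglobulin and T cell receptor segments had been left out. For Mcpt8 the closest were Cfp, which encodes properdin of the complement system, at 0.18, and Abca9 and Met, both at 0.19 on the log2 scale. Prg2 was closest to S100a9 at 0.64 and Lcn2 at 0.67, both neutrophil proteins, and to Ces2g at 0.69. S100a9 averaged 9.43 ± 0.25 in CD127+ LMPPs and 6.91 ± 0.80 in CD127- LMPPs (SD, n = 3 each). Cpa3 was closest to Tcf7, a T lineage transcription factor, at 0.44, to Vmn1r227 at 0.47 and to Kynu at 0.47, and Vmn1r227 is a sensory receptor under the limit on every array. Gzmb was closest to Itga3 at 0.17, Tulp4 at 0.19 and Tcf7l2 at 0.20. These are descriptions of 10 arrays that share their groups.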

How the data were processed

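The deposited table held 1 value for each of 269751 probe sets on 10 arrays. The deposited values span 0.20 to 14.8 and were taken to be log2 signals. Affymetrix Power Tools is named, without its role, per the submitters' processing notes. The sources used here do not state the base of the logarithm, how probes were summarised and normalized or which build was used. Array medians differed by at most 0.05. Probe sets with 1 symbol in the platform annotation (233753) were averaged per gene, and those with several or none (35998) were left out. All 10 arrays entered 1 fit with limma 3.58.1 in R 4.3.3 (lmFit and eBayes, a mean for each group), with Benjamini-Hochberg adjustment over 23152 genes and a threshold of 0.05. The test was tried on simulated independent normal values with planted changes. Such data cannot show how it behaves where probe sets disagree or where single arrays decide a call. Folds against a group under the low signal limit on every array are given as bounds, which do not allow for the spread between arrays. All members are named, up to 4 genes that passed from each list, or else that with the largest difference, and the 3 closest to each changing member. The members, lists and tests were chosen with earlier results of these data known. Alternatives covered scaling, the gene value, filters, array weights, the replicate block and each array left out. Of 176 list genes, 162 were measured, and the others are not analysed here.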

Additional observations from a re-analysis of the deposited data

How the results depend on the processing

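Of 54 member comparisons, 10 passed, 3 of them (all Mcpt8) in every alternative, 39 passed in none of the settings and 5 passed only in an alternative. The count of members that passed between CD127+ and CD127- LMPPs was 3, and 1 with the median of the probe sets, the brightest probe set, probe sets above the limit or the replicate block (1 to 3 with each array left out). The Cpa3 call there was also lost where a log2 difference of at least 1 was required, and the Prg2 call with the trend and robust settings of limma. Between Ly6D+ and Ly6D- CLPs the count was 1, and 0 with the median, the brightest probe set or the compared arrays alone (0 to 1). For Ly6D- CLPs over CD127+ LMPPs it was 0, and 1 with genes above the limit. Ly6D+ CLPs over CD127+ LMPPs gave 1, and 0 with the brightest probe set and 2 with genes above the limit or array weights (0 to 2). Ly6D- CLPs over CD127- LMPPs gave 3, and 1 with the brightest probe set (2 to 3 with each array left out). The Gzmb call of this comparison was also lost with the median, probe sets above the limit, the replicate block or array weights. It was lost too where a log2 difference of at least 1 was required. Ly6D+ CLPs over CD127- LMPPs gave 2, and 1 with the median, the brightest probe set or probe sets above the limit (1 to 3). The count was also 1 with genes above the limit, a filter that left Gzmb out, so its call was not tested there. The F test gave 4, and 1 with the brightest probe set and 2 with the replicate block (2 to 4). The brightest probe set turned 6 signs: Cpa3 to -0.070 in CD127+ over CD127- LMPPs and 0.26 in Ly6D+ CLPs over CD127+ LMPPs, Gzmf to -0.51 in Ly6D- CLPs over CD127- LMPPs, and in Ly6D+ CLPs over CD127- LMPPs Gzmb to -0.032, Ndst2 to 0.10 and Cd200r1 to 0.25 (0.040 with probe sets above the limit). The cause was not tested. Neither scaling changed a member count.

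Over all genes, the alternatives other than single arrays left out gave 88 to 581 calls beside 341 between the LMPP groups, 1 to 78 beside 23 between the CLP groups, 22 to 1398 beside 476 for Ly6D- CLPs and 321 to 1959 beside 933 for Ly6D+ CLPs over CD127+ LMPPs, 518 to 2551 beside 1643 for Ly6D- CLPs and 809 to 3451 beside 2517 for Ly6D+ CLPs over CD127- LMPPs, and 1042 to 3516 beside 2171 in the F test (1199 to 2028 with 1 array left out). The lowest counts of 1 and 22 came from the compared arrays alone. The labels' replicate numbers were not taken as pairs: same-numbered LMPP arrays deviated together with correlations of 0.02, -0.01 and 0.04. Of 92 calls among genes of the mast cell, basophil and eosinophil lists and the natural killer and plasmacytoid dendritic cell lists, 21 passed in every alternative. Groups of 2 or 3 arrays and low signal limit the precision.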
